A study of Rattus norvegicus with 36 samples.

Results

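The genes described here are 37 rat genes of the type I interferon response, taken by symbol from a list of interferon-driven transcription factors, cytosolic sensors of viral nucleic acid and antiviral effectors. Of the 37, 34 were found among the 17352 named genes of the RNA-seq table, and Ifi44l, Herc6 and Xaf1 were not matched and are not analysed here. Levels are given in RPKM, read counts divided by gene length and library size. A gene was tested if it reached 1 RPKM in at least 3 of the 18 libraries, which held for 33 of the 34, among 11544 genes in all. Ifit1 did not pass (0 to 0.94 RPKM, 0 in 5 libraries), and Oas1a, Oas1b and Oas2 passed through 6, 5 and 4 libraries. All values of the members are from bulk tissue, in which more cells of a type and more RNA per cell cannot be told apart.

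RNA-seq was carried out on colon of male F344 rats at 30 weeks of age, in 6 groups of 3 libraries. Pirc rats carry a germline Apc mutation and develop adenomatous colon polyps, and WT rats are of the same strain without it. The PST and PCT groups are colon tumors of Pirc rats on SPI, the AIN93 diet with 10% w/w freeze-dried baby spinach given from 4 weeks of age, and on AIN93 control diet. PSN and PCN are normal-looking colon of Pirc rats on SPI and on control diet, said to be matched to the tumors of the same animals. Normal colon of WT rats made up WSN on SPI and WCN on control diet. The 3 libraries of each group are described as biological replicates.

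Type I interferons are secreted proteins of the alpha and beta families. They bind a receptor made of Ifnar1 and Ifnar2, whose kinases Jak1 and Tyk2 activate a transcription factor complex that holds Stat2 and Irf9 and binds DNA at the interferon-stimulated response element. The genes it switches on include sensors that detect more viral RNA, Irf7, which raises interferon production, and effectors that block viral replication. In the gut this response is known from viral infection, and epithelial cells, macrophages and dendritic cells all mount it.

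The response element holds a repeat of GAAA, and the members were searched for GAAANNGAAA on either strand (TTTCNNTTTC where it lies on the opposite strand) in RefSeq promoters of build GRCr8, from 250 bases before to 50 after the start of each gene. Promoter sequence was at hand for 27 of the 37 genes. None was found for Isg15, Ifit1, Ifit2, Mx2, Oas2, Usp18, Ddx58 (listed as Rig1), Dhx58, Zbp1 and Rtp4, which were not searched. At least 1 match was found in 18 of the 27 (66.7%), against 3.92% of all 33469 promoters, and matches at 2 separate places in 3 of the 27, against 0.164% of all. Windows of 8 members are printed, all upstream of the start, to show the letters shared by members whose levels are described below, with the motif in capitals, on the strand of the gene.
Ifit3 (chr1:241527274-241527299, + strand): taagtctgTTTCAGTTTCtagtttcc
Lgals3bp (chr10:104127881-104127906, - strand): gttttctgGAAATCGAAActagacta
Irf7 (chr1:205800075-205800100, - strand): agtttaggTTTCATTTTCccgagacg
Rsad2 (chr6:48788250-48788275, - strand): ggttcaacTTTCATTTTCagaaaaca
Bst2 (chr16:18255075-18255100, - strand): aggaaaatGAAACTGAAAggtggcag
Oas1b (chr12:41395888-41395913, - strand): gggaaatgGAAACTGAAAaccctatt
Parp14 (chr11:78408050-78408075, + strand): caggaaatGAAAGTGAAAgaagtaag
Ifitm3 (chr1:205541785-205541810, - strand): aaattcagGAAAAGGAAActtctgag
The first base of the match lay 44 bases before the start in Ifit3, 50 in Lgals3bp, 69 in Irf7, 147 in Rsad2, 125 in Bst2, 53 in Oas1b, 76 in Parp14 and 44 in Ifitm3. In Bst2 and Oas1b a further match overlapped the one printed. No match was found within the window of Mx1, Oasl, Irf9, Stat2, Ifi35, Herc6, Cmpk2, Parp9 or Trim25. A match describes letters and is not evidence of binding.

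The widest differences in these genes lay between the tumors of 1 group. Isg15, a ubiquitin-like protein that is joined to other proteins during infection, had 558, 19.6 and 42.6 RPKM in PST1, PST2 and PST3, against 20.3, 10.1 and 12.8 in PSN. It had 66.95, 57.57 and 17.05 RPKM in PCT, against 12.9, 63.0 and 11.8 in PCN, and 7.53 to 20.2 in the 6 WT libraries. PST1 thus stood above every other library, by 8.34-fold over the next highest, while PST2 and PST3 fell within the range of PCT.

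**Figure D1:**
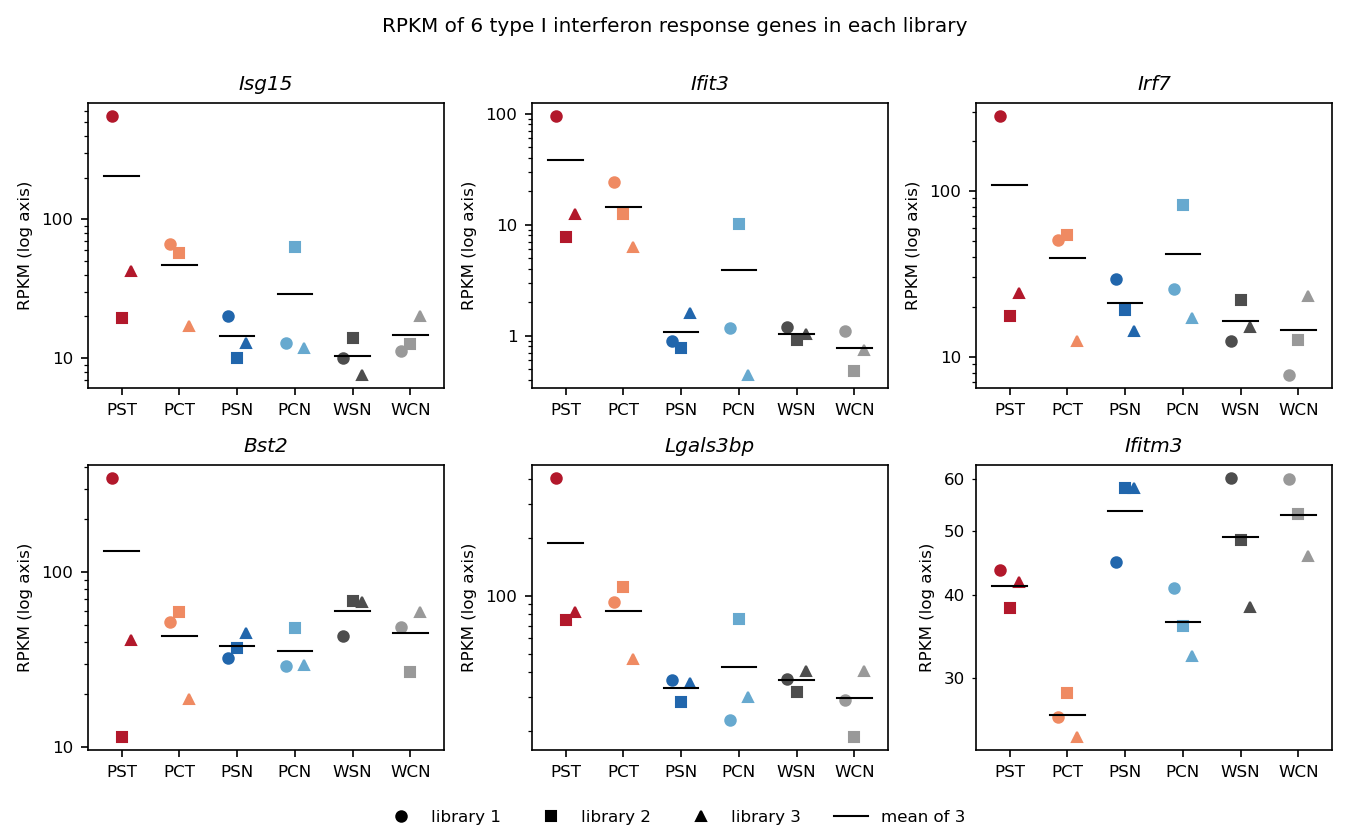
RPKM on a log axis of 6 genes in each library of the 6 groups, with the symbol giving the library number and a bar at the mean of 3. PST1 is the highest library for Isg15 (558 RPKM), Ifit3, Irf7, Bst2 and Lgals3bp but not for Ifitm3, in which PST lies between 38.3 and 43.7 RPKM and PCT between 24.4 and 28.5.

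The same library was highest of the 18 in 32 of the 33 members, a place that PST1 held in 10.9% of all genes tested. Ifitm3, a membrane protein that blocks virus entry, was the exception, with 43.7 RPKM in PST1 and its highest value, 60.2 RPKM, in WSN1. PST1 exceeded every other library at least 2-fold, after 0.5 RPKM was added to both, in 23 members, and in 85 of all 11544 genes (0.736%). At least 4-fold it did so in 8 members (Isg15, Oas2, Rsad2, Oas1b, Bst2, Zbp1, Cmpk2 and Usp18), of 21 genes in all. Over the members, PST1 had a median of 8.16 times the RPKM of PST2 (1.14 to 59.5) and 5.30 times that of PST3 (1.04 to 82.6). Rsad2, which makes an antiviral nucleotide, gave the 59.5-fold ratio, with 64.9, 1.09 and 4.42 RPKM in the PST libraries. Oas2, one of the synthetases whose product activates RNase L, gave the 82.6-fold ratio, with 20.7, 0.70 and 0.25 RPKM. The ratios to PST2 and PST3 are of RPKM without the 0.5 added. For Oas2 the divisor lay below 1 RPKM, the level set for testing, where a ratio is easily inflated.

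**Figure D2:**
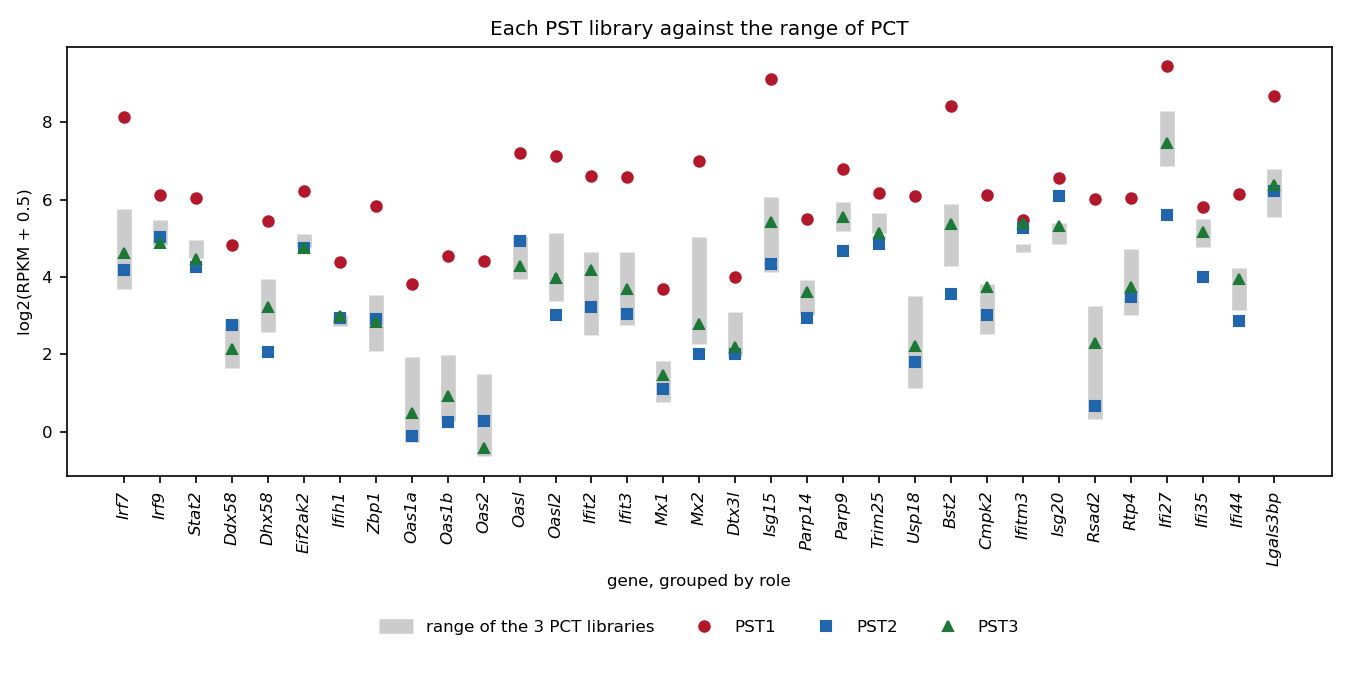
Log2(RPKM + 0.5) of the 33 tested genes in PST1, PST2 and PST3, with a gray bar over the range of the 3 PCT libraries. PST1 lies above the PCT range in 33 genes, and PST2 lies below it in 13 and PST3 in 3.

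PST2 was the lowest PST library in 26 members (46.4% of all genes) and PST3 in 7 (20.5%), and their order was not the same for each gene. Bst2, which tethers budding virus to the cell surface, had 345 RPKM in PST1, 11.4 in PST2 and 41.0 in PST3, against 18.8 to 58.9 in PCT and 32.2 to 44.8 in PSN, and Ifi27, a mitochondrial protein and the most abundant member, had 698, 48.0 and 175 RPKM in PST, against 178 to 224 in PSN. In both genes PST2 was the lowest of all 18 libraries. Set against PCT, PST1 lay above all 3 libraries in 33 members (24.9% of all genes), PST2 below all 3 in 13 (40.4% of all genes) and PST3 below them in 3 (19.3%).

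The spread was measured as the SD of log2(RPKM + 0.5) over the 3 libraries of a group. Its median over the members was 1.62 in PST, 0.711 in PCT, 0.303 in PSN, 0.826 in PCN, 0.268 in WSN and 0.315 in WCN, against 0.291, 0.201, 0.202, 0.215, 0.227 and 0.195 over all genes. PST had the largest SD of the 6 groups in 32 members and in 36.5% of all genes. The members were thus most uneven in PST, less so in PCN and PCT, and closest to the other genes in PSN and WT colon.

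**Figure D3:**
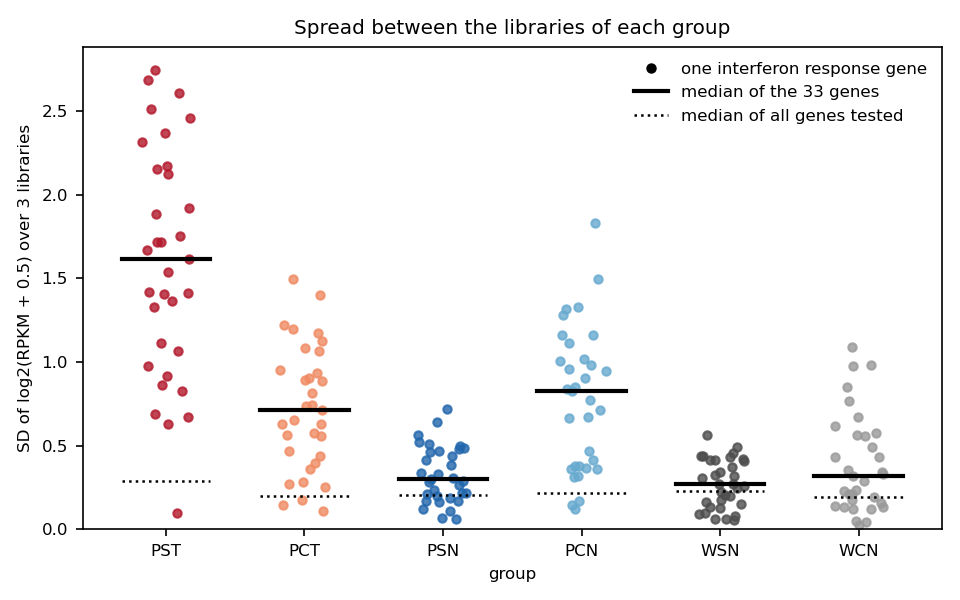
SD of log2(RPKM + 0.5) over the 3 libraries of each group, 1 point for each of the 33 tested genes, with a solid line at their median and a dotted line at the median of all genes tested. The median of the members is 1.62 in PST and 0.826 in PCN, and all-gene medians lie between 0.195 and 0.291.

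In PCT and PCN, too, the members moved by library. PCT3 was the lowest PCT library in all 33 tested members (33.9% of all genes), and PCT1 was the highest in 24 (30.4% of all genes). PCN2 was the highest PCN library in 30 (46.7% of all genes) and lay above each of the other 11 normal-colon libraries in 26 members, against 15.01% of all genes. As a difference in log2(RPKM + 0.5) from the WCN mean, the median member stood at 3.00 in PST1, 0.36 in PST2, 0.64 in PST3, 1.41 in PCT1, 1.13 in PCT2, 0.04 in PCT3 and 1.24 in PCN2, and between -0.15 and 0.34 in the other 11 libraries. By this median PCN2 was close to PCT1 and PCT2, and PCT3 was close to normal colon. PCN2 is labelled as from a Pirc rat with no tumor, although normal-looking Pirc colon is said to be matched to tumors of the same animals. After group means were removed, the median correlation between 2 members across the 18 libraries was 0.845, and 0.643 without PST1, against 0.0325 and 0.0381 for all pairs of genes. All genes of a library share its depth and cell makeup, which differ between libraries, and these correlations carry no test.

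**Figure D4:**
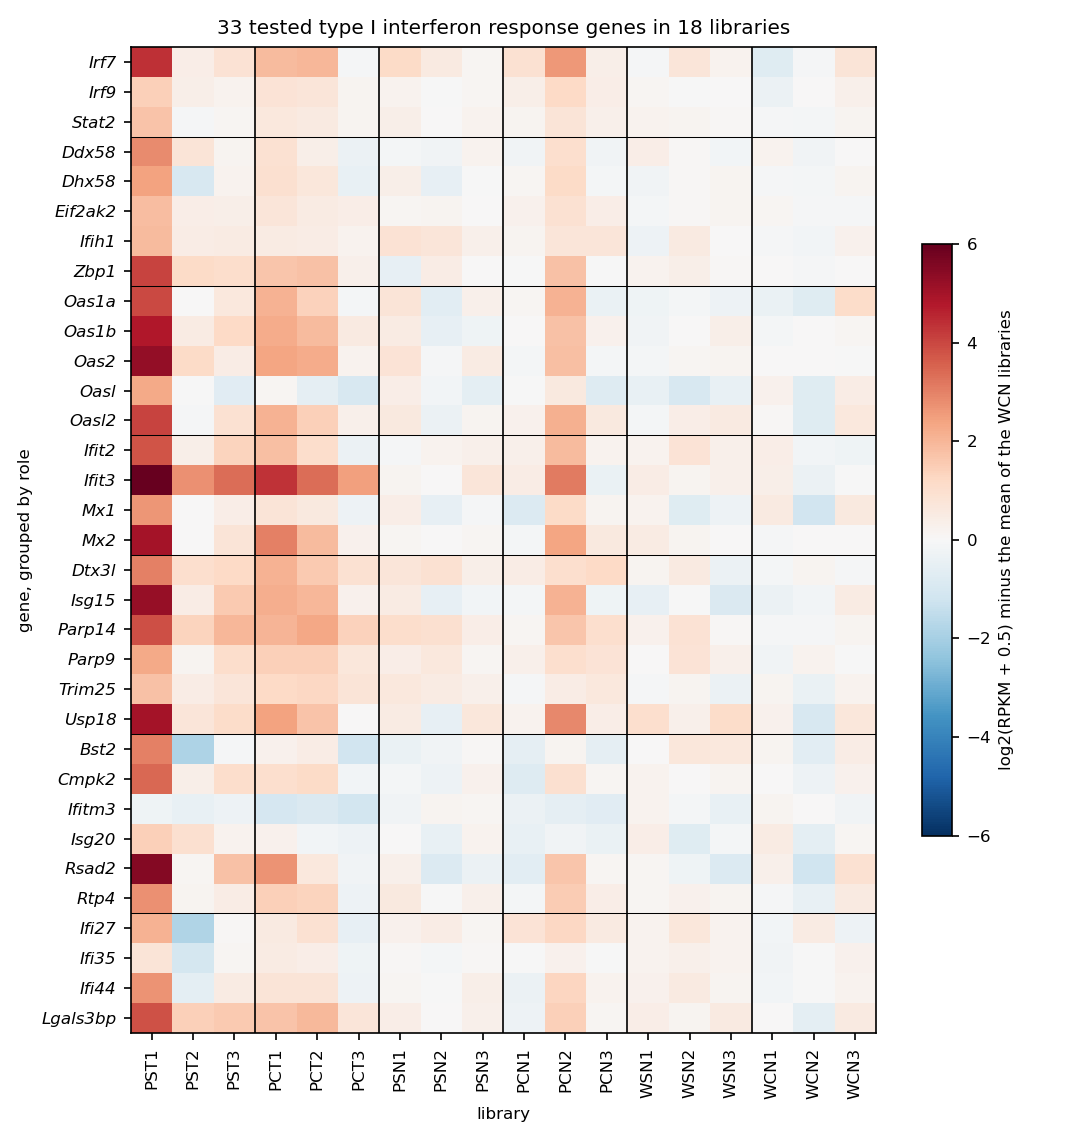
Log2(RPKM + 0.5) of the 33 tested genes in each library, as the difference from the mean of the WCN libraries, with genes grouped by role and libraries by group. PST1 is the darkest column (median 3.00), PCT1, PCT2 and PCN2 follow (1.41, 1.13 and 1.24), and Ifit3 is raised in every tumor library.

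Tumor was set against normal-looking colon in SPI-fed rats to ask which members differ between tumor and normal tissue. Fold changes are differences of mean log2(RPKM + 0.5) in limma, fitted over all 18 libraries, and calls were made where the p-value, adjusted over every tested gene by the Benjamini-Hochberg method, was below 0.05. In PST vs. PSN, 8 of 33 members were called higher and 0 lower, against 25.9% and 16.5% of all genes (42.3% in both directions). The share of members called higher was close to that background. Of all calls 61.1% were higher, or 49.2% after median-of-ratios scaling, which left 6 members higher and Ifitm3 lower. The share of all genes called on that scale is not given here. In 10 members the 3 PST libraries lay above the 3 PSN libraries (29.8% of all genes), and in 1, Ifitm3, below them (19.6%). The median log2 fold change was 1.08 for the members and 0.12 for all genes, and 30 of the 33 were above 0, against 6570 of all 11544 genes.

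Ifit3, whose protein binds viral RNA in a complex with its relatives, differed most among the 8. It had 95.4, 7.72 and 12.4 RPKM in PST, against 0.89, 0.77 and 1.59 in PSN, without overlap (log2 fold change 3.81 ± 0.85 SE, limma adjusted p = 0.00245). Lgals3bp, a secreted galectin-binding glycoprotein, had 407, 74.9 and 82.7 RPKM in PST, against 36.7, 28.3 and 35.1 in PSN (2.02 ± 0.56, limma adjusted p = 0.00964). For both genes each of the 3 tumors was above each normal library. Zbp1, a sensor of Z-form nucleic acid, had 57.0, 6.99 and 6.68 RPKM in PST, against 1.93, 4.12 and 3.02 in PSN (2.10 ± 0.66, limma adjusted p = 0.0189).

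Parp14, an ADP-ribosyltransferase, had 44.88, 7.2 and 11.8 RPKM in PST, against 5.82, 5.49 and 3.62 in PSN (1.59 ± 0.51, limma adjusted p = 0.0205), and Cmpk2, a mitochondrial nucleotide kinase, 68.9, 7.62 and 13.0 RPKM, against 5.51, 4.65 and 7.31 (1.66 ± 0.60, limma adjusted p = 0.0364). Groups did not overlap in either, although PST2 lay close to the highest PSN library. The exonuclease Isg20 had 94.5, 67.6 and 39.7 RPKM in PST, against 35.2, 25.6 and 40.4 in PSN (0.92 ± 0.33, limma adjusted p = 0.0357), and Oas1b 22.9, 0.68 and 1.39 RPKM, against 0.68, 0.09 and 0.20 (2.25 ± 0.82, limma adjusted p = 0.0371). Eif2ak2, the RNA-dependent kinase PKR, had 75.0, 26.4 and 26.2 RPKM in PST, against 21.7, 22.7 and 20.6 in PSN (0.77 ± 0.29, limma adjusted p = 0.0445). PST1 was the highest PST library in each of these genes, and PSN lay below all 3 tumors in Eif2ak2 but not in Isg20.

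Without PST1, Ifit3 (2.73, limma adjusted p = 0.0110) and Lgals3bp (1.23, limma adjusted p = 0.0408) were called, 2 members of 33 against 23.5% of all genes called higher and 38.3% called in either direction. The median log2 fold change of the members fell to 0.28, with 24 of 33 above 0, against 6498 of all 11500 genes. Without PST2 the count was 17 (40.5% of all genes called in that fit) and without PST3 it was 13 (38.5%). Without PSN1 it was 5, Ifitm3 lower among them (33.6% of all genes), and without PSN2 or PSN3 it was 4 in each (35.4% and 36.8%). With the replicate number as a block, which pairs tumor and normal colon if same-numbered libraries are from 1 rat, 12 members were called, against 43.2% of all genes, with Isg15 (limma adjusted p = 0.00977), Rsad2, Oas2, Ddx58 and Ifit2 gained and Isg20 lost (limma adjusted p = 0.0580).

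**Figure D5:**
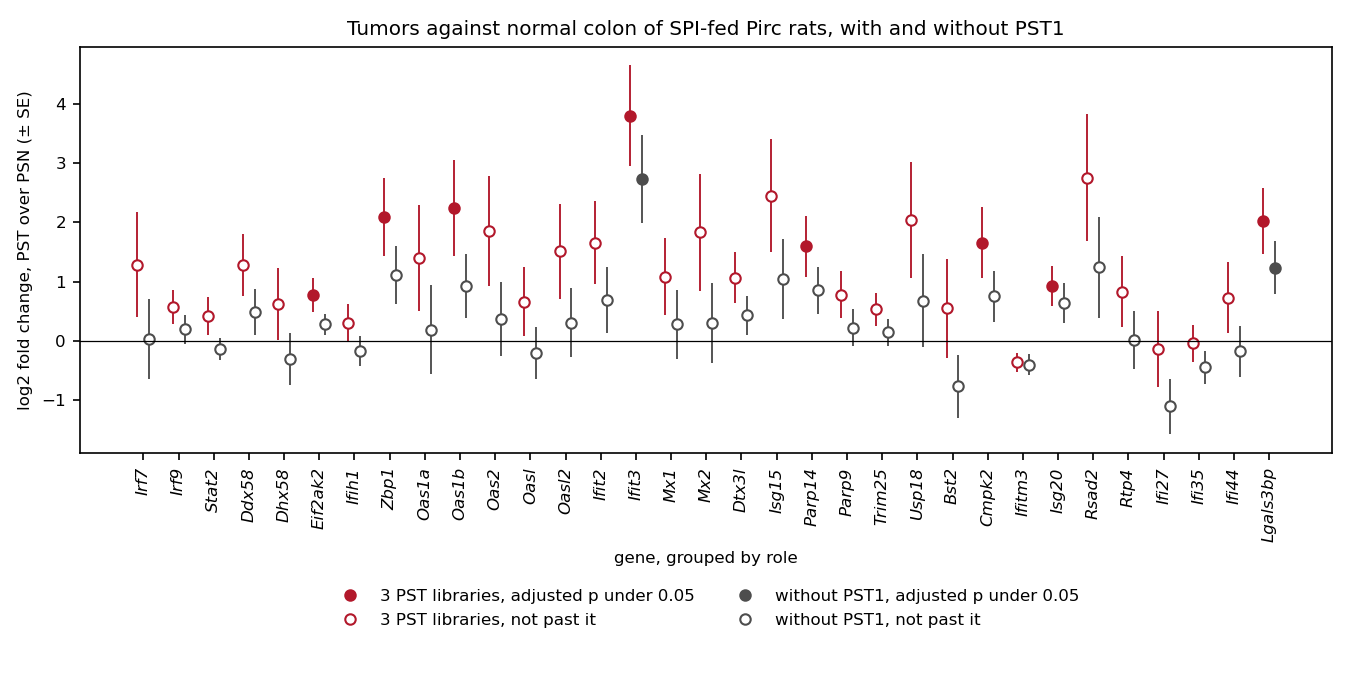
Log2 fold change of PST over PSN for the 33 tested genes, with bars of 1 SE from limma, for all 3 PST libraries (red) and without PST1 (gray), filled where the adjusted p is under 0.05. Ifit3 and Lgals3bp are filled in both, and 6 further genes are filled with PST1 alone.

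The members not called in PST vs. PSN are given by role. Of the transcription factors, Irf7 had 283, 17.7 and 24.1 RPKM in PST, against 29.5, 19.2 and 14.3 in PSN (1.28 ± 0.89), and Irf9 had 68.9, 32.3 and 28.9 RPKM, against 28.9, 24.8 and 26.8 (0.58 ± 0.29). Stat2 had 65.5, 18.7 and 21.4 RPKM in PST, against 24.8, 19.6 and 22.5 in PSN. None of the 3 was called. PST2 and PST3 lay within the PSN range for Irf7, and PST2 lay below it for Stat2. Of the sensors of viral RNA, Ddx58 had 28.0, 6.21 and 3.89 RPKM in PST, against 3.18, 2.94 and 4.09 in PSN, while Ifih1 and Dhx58 had 20.6 and 43.0 RPKM in PST1 but 7.17 to 7.48 and 3.68 to 8.89 in PST2 and PST3, against 6.60 to 9.88 and 5.27 to 9.73 in PSN. In PST2 and PST3 these last 2 sensors did not exceed the range of PSN.

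Of the 5 genes of the Oas family, 1 was called. Oasl had 148, 30.1 and 18.9 RPKM in PST, against 39.7, 26.8 and 19.98 in PSN, and Oasl2 139, 7.55 and 15.2 RPKM, against 12.1, 5.98 and 8.82. Oas1a and Oas2 stayed under 1.1 RPKM in PSN and in PST2 and PST3, and had 13.6 and 20.7 RPKM in PST1. Reads of such close relatives could have been shared among them, since how the authors counted them is not given in the sources used here. Of the Ifit and Mx families, the antiviral GTPase Mx2 had 128, 3.54 and 6.39 RPKM in PST, against 3.88, 3.60 and 3.92 in PSN. Ifit2 had 97.97, 8.80 and 17.7 RPKM in PST, against 6.33, 8.03 and 8.59 in PSN. PST2 lay below all 3 PSN libraries for Mx2, which differed little among themselves.

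Among the enzymes of Isg15 and ADP-ribose conjugation, Parp9 and its ubiquitin ligase partner Dtx3l had 110, 24.97 and 46.1 RPKM and 15.6, 3.49 and 4.06 RPKM in PST, against 23.9 to 34.6 and 2.07 to 3.28 in PSN. Usp18, the protease that removes Isg15 and dampens the receptor, had 68.0, 2.98 and 4.14 RPKM in PST, against 2.54, 1.01 and 2.96 in PSN (2.04 ± 0.98, limma adjusted p = 0.106), and Trim25, the ligase of the Ddx58 pathway, 71.1, 28.4 and 34.7 RPKM, against 31.9, 28.8 and 25.1. Bst2 and Ifi27 without PST1 had log2 fold changes of -0.78 and -1.12 (limma adjusted p = 0.258 and 0.0739), and PST2 and PST3 were both below every PSN library for Ifi27. Ifi35, with 55.2, 15.4 and 35.2 RPKM in PST, against 33.8, 29.2 and 33.8 in PSN, had a log2 fold change of -0.05. Rtp4 and Ifi44, with 65.9 and 69.8 RPKM in PST1, had 6.71 to 14.9 RPKM in PST2 and PST3, against 9.27 to 14.4 in PSN.

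In PCT vs. PCN, the same question on control diet, 1 member was called higher and 1 lower, against 21% and 11.7% of all genes (32.7% in both directions). Groups did not overlap in 1 member that was higher, Trim25 (32.3% of all genes), and in 1 that was lower, Ifitm3 (17.8%). The median log2 fold change was 0.23 for the members and 0.13 for all genes. Ifit3 had 24.4, 12.4 and 6.30 RPKM in PCT, against 1.18, 10.2 and 0.44 in PCN (2.34 ± 0.85, limma adjusted p = 0.0457), with PCN2 inside the range of the tumors. Ifitm3 had 26.2, 28.5 and 24.4 RPKM in PCT, against 41.0, 35.9 and 32.4 in PCN, without overlap (-0.46 ± 0.16, limma adjusted p = 0.0387). It was the single member called lower in tumors. Of the 33 members 27 had a positive log2 fold change, against 6943 of all 11544 genes, and 22 did after median-of-ratios scaling.

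Calls in PCT vs. PCN also rested on libraries outside those 2 groups, through the shared estimate of spread. Without PST1, 4 members were called, Ifit3, Parp14 and Trim25 higher and Ifitm3 lower, against 34% of all genes. Trim25 had 46.9, 50.0 and 35.1 RPKM in PCT, against 19.4, 27.8 and 31.95 in PCN, without overlap (0.74 ± 0.28, limma adjusted p = 0.0558, or 0.0149 without PST1). With the replicate block, Ifit3 (limma adjusted p = 0.0248) and Trim25 (0.0425) were called and Ifitm3 was not (0.0580), against 33.4% of all genes. With median-of-ratios scaling Ifitm3 alone was called (-0.59, limma adjusted p = 0.00797), and of all calls 49.5% were higher, against 64.2% on the RPKM scale. Without PCN1 or without PCT1 no member was called, and without PCN2 the calls were Ifit3 (3.37, limma adjusted p = 0.00507) and Lgals3bp (1.57, limma adjusted p = 0.0491). The share of all genes called in these fits and in the scaled one is not given here, so these counts do not set the members apart. Lgals3bp had 92.9, 110 and 46.7 RPKM in PCT, against 22.6, 76.1 and 29.9 in PCN.

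In same-numbered pairs of tumor and normal colon, the median member was higher in tumor by 2.84 on the log2 scale for PST1 over PSN1, 0.21 for PST2 over PSN2, 0.42 for PST3 over PSN3 and 1.504 for PCT1 over PCN1, and the difference was -0.28 for PCT2 and PCN2 and -0.24 for PCT3 and PCN3. Of the 33, 32, 21 and 25 were higher in tumor in the SPI pairs numbered 1, 2 and 3, and 31, 13 and 11 in the control-diet pairs, against 52.4% to 59.6% of all genes in the 6 pairs. PSN1, the normal-looking colon with the number of PST1, had members close to WCN (median 0.34).

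PST vs. PCT asked whether tumors differ by diet. No member was called, and of all genes 0% were (920 genes, 7.97%, had an unadjusted limma p under 0.05, among them 2 members, Ifitm3 and Isg20). The members had a median log2 fold change of 0.54, with 29 of 33 above 0, against 5419 of all 11544 genes. Without PST1 their median was -0.45, with 8 of 33 above 0, against 5450 of all 11500 genes. Without PST1, 4 members had an unadjusted limma p under 0.05, Ifitm3 higher and Ifi27, Ifi35 and Stat2 lower, against 11.6% of all genes. The direction of the group in tumors therefore turned on 1 library. PST and PCT did not overlap in 1 member, Ifitm3, which was higher in PST (4.36% of all genes, with 5.95% lower). It had 38.3 to 43.7 RPKM in PST, against 24.4 to 28.5 in PCT (log2 fold change 0.64 ± 0.16, limma adjusted p = 0.489). Without PST1 its log2 fold change was 0.60. Ifitm3 was the member with the least spread in PST (SD 0.0957 on the log2 scale). For tumor by diet, the difference between PST vs. PSN and PCT vs. PCN, 0 members were called (lowest limma adjusted p = 0.999, 3.95% of all genes at an unadjusted p under 0.05, 0 of them members), and the median of the members was 0.77, or 0.04 without PST1.

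In normal-looking colon, PCN vs. WCN had 0 of 33 members called, against 0.13% of all genes. The median log2 fold change was 0.55, with 29 of 33 above 0, against 5888 of all 11544 genes. An unadjusted limma p under 0.05 was found for 2 members, Irf9 and Ifitm3, against 13.4% of all genes. Without PST1, which enters this comparison through the shared spread only, 8 members had such a p (Dtx3l, Eif2ak2, Ifih1, Ifitm3, Irf9, Parp14, Parp9 and Stat2), against 14.4% of all genes, and 0 were called. Irf9 had 31.96, 57.3 and 32.97 RPKM in PCN, against 19.6, 25.7 and 30.6 in WCN (0.65 ± 0.29, limma adjusted p = 0.349). Ifi27 had 291, 395 and 241 RPKM in PCN, against 147, 235 and 134 in WCN, also without overlap (0.86 ± 0.65, limma adjusted p = 0.590). Members in which PCN lay wholly above WCN numbered 5, against 10.9% of all genes, and Ifitm3 lay wholly below it (10.4% of all genes), at 32.4 to 41.0 RPKM in PCN, against 45.9 to 60 in WCN (limma adjusted p = 0.200).

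The SPI comparisons in normal tissue gave no calls among the members, in PSN vs. PCN (0.00866% of all genes called), in WSN vs. WCN or in PSN vs. WSN (0% of all genes in each). In PSN vs. PCN the median log2 fold change was -0.33, with 28 of 33 below 0, against 6296 of all 11544 genes. PCN2 is 1 of the 3 PCN libraries here. PSN lay above PCN in 1 member, Ifitm3, and below it in 3 (5.02% and 6.55% of all genes). Ifitm3 was also the 1 member at an unadjusted limma p under 0.05 (5.32% of all genes), with 44.9, 58.1 and 58.1 RPKM in PSN, against 41.0, 35.9 and 32.4 in PCN (0.55 ± 0.16, limma adjusted p = 0.573). The medians in WSN vs. WCN and PSN vs. WSN were 0.14 and 0.03, and no member had an unadjusted limma p under 0.05 in either, where 3.26% and 8.12% of all genes did. Without PST1, 2 members did in PSN vs. WSN, Ifih1 and Trim25 (8.84% of all genes), and 3 in PSN vs. PCN, Ifitm3, Eif2ak2 and Irf9 (5.57%). For genotype by diet, (PSN - PCN) - (WSN - WCN), 0 members were called (lowest limma adjusted p = 0.885, 1 member, Ifitm3, and 5.07% of all genes at an unadjusted p under 0.05), with a median of -0.42.

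The other genes of the pathway were read from lists of interferons, receptors, upstream factors and inhibitors. Of 11 interferon genes listed, 6 were in the table and none reached the level to be tested. Ifna1, Ifna2, Ifna4 and Ifnb1 were listed at 0 in all 18 libraries, Ifnk and Ifng at up to 0.26 and 0.17 RPKM, and PST1 had 0 for all 6. An exact 0 need not mean that no transcript was there, since 2707 of the named genes were at 0 in every library, among them Tap2, whose partner Tap1 had 17.97 to 71.5 RPKM. Among 8 receptors and kinases, none was highest in PST1. Ifnar1 had 9.44, 8.09 and 11.2 RPKM in PST, against 6.22 to 7.51 in PSN (0.47 ± 0.18, limma adjusted p = 0.0424), and it was called in PCT vs. PCN too, as were Jak1 and Jak2, the kinases, in both (3 of 8 higher). Of all genes, 25.9% were called higher in PST vs. PSN and 21% in PCT vs. PCN. Without PST1, 2 of the 8 were called higher and 0 lower in PST vs. PSN, where 23.5% of all genes were higher. Ifngr2, a chain of the interferon-gamma receptor, was lower in both, with 36.9, 86.0 and 47.7 RPKM in PST, against 62.4 to 102 in PSN (-0.69 ± 0.25, limma adjusted p = 0.0385).

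Among 12 upstream sensors, adaptors and factors, 3 were higher and 1 lower in each of PST vs. PSN and PCT vs. PCN. Of all genes, 25.9% were higher and 16.5% lower in PST vs. PSN, and 21% and 11.7% in PCT vs. PCN. Tmem173, the adaptor STING of the cytosolic DNA pathway, had 138, 52.1 and 65.7 RPKM in PST, against 5.65 to 8.11 in PSN (3.44 ± 0.43, limma adjusted p = 3.3e-05), and 82.5, 64.3 and 53.3 RPKM in PCT, against 9.24, 34.9 and 9.82 in PCN (2.12 ± 0.43, limma adjusted p = 0.00210). It was higher in each of the 6 tumors than in any normal library, and PST1 and PCN2 were again the highest of their groups. Traf3 and Ikbke were higher and Mavs, the adaptor of the RNA sensors, lower in both (29.4 RPKM in PST and 42.7 in PSN). Of 8 inhibitors, 4 were higher in both, Socs1, Socs3, Pias1 and Samhd1. Without PST1, 3 were higher and 1 lower in PST vs. PSN, where 23.5% of all genes were higher. Samhd1, which depletes nucleotides, had 12.3, 4.23 and 5.09 RPKM in PST, against 1.38 to 1.65 in PSN. Adar, an RNA editor whose long form is made in response to interferon, had 70.4, 22.3 and 28.5 RPKM in PST, against 31.0 to 48.3 in PSN, and was not called.

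A list named for the response to interferon-gamma, the cytokine of T cells and natural killer cells, was read on its own. Which interferon its genes followed was not tested. Of the 13 tested genes of this list, 6 were higher in PST vs. PSN, against 25.9% of all genes. Without PST1 the count was 6 as well, against 23.5% of all genes. In PCT vs. PCN 2 were higher, against 21% of all genes. PST1 was the highest of the 18 libraries for Cxcl10, Gbp4, Psmb8 and Tap1. Cxcl10, a chemokine that attracts T cells, had 181, 118 and 57.4 RPKM in PST, against 13.8, 8.83 and 5.36 in PSN (3.55 ± 0.63, limma adjusted p = 0.000491). Cxcl9 was highest in PST2, with 15.5, 62.6 and 9.37 RPKM in PST. Gbp5, a guanylate-binding protein, had 12.6, 18.2 and 14.9 RPKM in PST, against 3.65 to 5.13 in PSN (1.68 ± 0.43, limma adjusted p = 0.00558).

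Cell type markers were read beside these genes. The colon label held, with 8 epithelial markers summing to 2442 to 4728 RPKM in PST, 2306 to 2791 in PCT and 3197 to 8122 in normal colon, none of them at 0. Smooth muscle markers, 7 in number, summed to 207 to 353 RPKM in PST and 166 to 365 in PCT. They summed to 2972 to 4416 in PSN, 1328 to 3174 in PCN and 2246 to 9376 in WT colon. All 7 were called lower in both tumor comparisons, against 16.5% of all genes in PST vs. PSN and 11.7% in PCT vs. PCN. Within PST, neutrophil markers summed to 1724, 188 and 932 RPKM in PST1, PST2 and PST3 (897 to 1134 in PCT, 32.9 to 49.1 in PSN), and 1 of the 5, S100a9, was highest of 18 in PST1, while Csf3r, Cxcr2 and Mmp8 were lower in PST1 than in PST2 or PST3. Macrophage markers summed to 541, 417 and 517 RPKM in PST (330 to 431 in PCT, 244 to 451 in PSN), with 0 of 6 highest in PST1. T cell markers summed to 81.5, 137 and 64.9 RPKM (46.7 to 74.7 in PCT, 34.0 to 41.3 in PSN), with 1 of 6 highest in PST1. Cd3g gave most of the PST2 sum, with 34.85, 100.9 and 22.3 RPKM in PST. Within PST, Cd3d, Cd3e and Cd4 were lowest in PST2 and Cd2 was highest there. B cell markers summed to 1.91 to 5.72 RPKM in PST, 1.17 to 3.06 in PCT and 2.75 to 30.9 in PSN. Of 4 markers of plasmacytoid dendritic cells, the main makers of type I interferon, Tcf4 and Irf8 were tested. Ccr9 stayed under 1 RPKM and Siglech was not matched. The sum over the list was 75.7 to 91.4 RPKM in PST, 85.0 to 112 in PCT and 41.1 to 56.9 in PSN. Irf8, also on the list of upstream factors, gave most of it, with 70.2, 81.3 and 52.8 RPKM in PST. The sum is thus mainly a reading of Irf8 and not a measure of these cells. The part of these cell types in the high members of PST1 was not tested.

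RPKM values carry no read totals, and relative depth read from the steps of the low values was 0.623 to 1.53 times that of the median library, with 1.27 in PST1, 0.916 in PST2 and 1.22 in PST3. Libraries of a group correlated at 0.938 to 0.980 on log2(RPKM + 0.5), lowest in PST (0.938 to 0.966). Weights that limma estimated for each library from the fit of all genes were 0.559 for PST1, 0.245 for PST2 and 2.14 for PST3, the lowest being that of PST2. Dividing the RPKM values by median-of-ratios factors moved the median of all genes by 0.13 in PCT vs. PCN and 0.12 in PST vs. PSN, and on that scale Ifitm3 was called lower in PST vs. PSN as well (-0.49, limma adjusted p = 0.0152).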

How the data were processed

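RNA-seq values were the RPKM values that the authors deposited, 1 column for each of 18 colon libraries from poly(A) RNA, 75-base paired-end reads. Bowtie2 and DESeq2 are named in the submitters' processing notes. Settings, genome build, annotation and how reads mapping to several genes were treated were not stated there or in the methods. Of 17378 rows, 26 with date-like names were left out. Groups came from the sample labels. Genes that reached 1 RPKM in 3 or more libraries were tested on log2(RPKM + 0.5), which understates changes of low genes, with limma 3.58.1 (R 4.3.3, trend and robust moderation, 1 fit over the 6 groups) and Benjamini-Hochberg adjustment at 0.05. RPKM keep no read totals, and relative depth was read from the steps of low values in 429 genes. The scripts were tested on simulated data.

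Every member could be named. Per-library values were set for members called in a comparison and for the 12 with the highest mean RPKM, and values of other members are examples chosen after they were seen. Members and gene lists were chosen with earlier results of these data known. Alternatives were other pseudocounts, filters, scaling, moderation, library weights, the replicate block, fits on the compared groups and each library left out. The pairing of same-numbered tumor and normal colon was inferred from a statement that they were matched in the same animal. The labels of PCN and PSN, however, name a Pirc rat with no tumor, and no label ties libraries to the same rat. Deviations of same-numbered libraries correlated at 0.0965, 0.0886 and 0.193 in PCT and PCN and at 0.128, -0.0496 and 0.0219 in PST and PSN. The 18 small RNA libraries were not used here. The values of 1 gene of the interferon-gamma list are not reported here.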

Additional observations from a re-analysis of the deposited data

How the results depend on the processing

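Counts of members called were 0 in the 7 comparisons other than the tumor against normal ones under every alternative run for them, each of the 18 libraries left out included. The replicate block was run for tumor by diet alone among these 7. In PCT vs. PCN, where 2 members were called, the count was 1 with a pseudocount of 1, with median-of-ratios scaling and without trend or robust moderation, and 0 to 4 with each library left out. In PST vs. PSN, where 8 were called, the count was 2 with only the groups compared in the fit and 2 to 17 with each library left out, lowest without PST1. Shares of all genes called are given above for some of these fits only, and a count without its share does not set the members apart. With the replicate block, the pairing gave 12 calls in PST vs. PSN, 2 in PCT vs. PCN and 0 in tumor by diet. Without the filter on low values, Ifit1 was called higher in both tumor comparisons. The members' median log2 fold change counted as moved if it shifted by at least the median limma SE of single members in that comparison. This held in 3 cases and not in 234. In PST vs. PSN the median moved to 0.28 without PST1, and in PST vs. PCT to -0.45 without PST1 and 1.18 without PST2. Of the results for single called genes under alternatives, 204 stayed on their side of the threshold, 65 did not and 0 changed sign. Median-of-ratios scaling moved the share of all called genes that were higher to 49.5%, against 64.2% on the RPKM scale, in PCT vs. PCN, and to 49.2%, against 61.1%, in PST vs. PSN. With 3 libraries a group, 1 library could decide these calls, and RPKM give no counting error.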

Other observations

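Beyond the 8 interferon genes, 13 genes were at least 4-fold higher in PST1 than in every other library after 0.5 RPKM was added, a list chosen after the values were seen. Reg3b and Reg3g, antibacterial lectins of the gut epithelium, had 2424 and 1251 RPKM in PST1, 17.1 and 81.4 in PST2 and 157 and 47.4 in PST3, with 412 and 238 RPKM as the next highest values, both in PCT1. The complement genes C3 and Cfb had 71.9 and 41.2 RPKM in PST1, 3.72 and 0.39 in PST2 and 10.2 and 0.92 in PST3. The others were Kb15, Pla2g2e, Fcrlb, Slc14a1, Gata2, Muc20, Lgals2, Clca4l and Krt84. Of the 24 tested members with a promoter sequence, the 16 with a GAAANNGAAA match had PST1 at a median of 3.24 times the highest other library (0.726 to 7.24), and the 8 without one at 1.87 times (1.202 to 5.05), given as a description with no test.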
